A study of Mus musculus with 14 samples.

Results

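Spheroids that carried a hairpin against *Grin2d* and received aspartate were compared with control-hairpin spheroids that received none. The comparison took 6 of the 14 libraries of the series, chosen by their labels: ASP shGRIN2D replicates 1 to 3 and NoASP shSCR replicates 2 to 4. All were made from 4T1 cells, a mouse triple-negative mammary cancer line, grown for 5 days as 3-dimensional spheroids in lung-like medium, whose nutrients resemble those of the fluid between lung cells. The ASP shGRIN2D spheroids had 700 µM aspartate in this medium, and the NoASP shSCR spheroids had no added aspartate and a non-targeting hairpin. The other 8 libraries, ASP shSCR (n = 4) and ASP shDHPS (n = 4, a hairpin against deoxyhypusine synthase), entered the model fit and are used below for values set side by side and for 1 direct comparison with ASP shDHPS.

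Both lines carried a lentiviral pLKO hairpin and were puromycin-selected as polyclonal pools, and each targeted gene is represented by 1 line. The hairpin and the aspartate differ together between the groups, so their effects cannot be told apart here. By the study's methods the RNA was input material of polysome profiling on separate pellets of spheroids, and the labels do not link each library to a pellet, so p-values measure the spread between these libraries. RNA came from the cytosolic lysate and was enriched for polyadenylated transcripts. The 6 libraries held 15246842 to 19497436 counts. Replicates correlated with Pearson r of 0.979 to 0.992 across genes, lowest for NoASP shSCR replicates 2 and 3. Of 10 epithelial marker genes, *Krt8* measured 1334 ± 63.2 CPM (counts per 1000000 of the library; SD, n = 3) and *Epcam* 515 ± 16.6 CPM in ASP shGRIN2D. The immune list summed to 8.40 to 11.1 CPM and the endothelial list to 0.867 CPM at most over the 6 libraries, with the macrophage marker *Csf1r* at 0 counts in all ASP shGRIN2D libraries. The fibroblast list summed to 173 to 177 CPM in ASP shGRIN2D and 169 to 230 CPM in NoASP shSCR. In ASP shGRIN2D *Thy1* made up 148 and *Pdgfra* 27.5 CPM of it, while *Dcn* had 0 counts.

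NMDA receptors are cation channels opened by glutamate, and also by aspartate, together with a co-agonist. They are assembled from an obligatory GluN1 subunit and GluN2 or GluN3 subunits, and *Grin2d* encodes GluN2D. They pass calcium, which can act on calmodulin-dependent kinases and on the transcription factor CREB. A short hairpin RNA is cut to a guide strand that directs cleavage of the fully matched transcript. Like a microRNA, a guide can also lower other transcripts whose 3′ UTR pairs with its seed, the bases near its 5′ end.

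*Grin2d* (ENSMUSG00000002771) measured 2.06, 2.17 and 3.13 CPM in ASP shGRIN2D replicates 1 to 3, from 40, 37 and 47 counts. It measured 3.05, 4.85 and 6.95 CPM in NoASP shSCR replicates 2 to 4, from 57, 92 and 125 counts. The ranges overlapped, because ASP shGRIN2D replicate 3 lay just above NoASP shSCR replicate 2. The log2 fold change of -1.02 (SE 0.29, 95% interval -1.63 to -0.41) missed the threshold of 0.05 (quasi-likelihood test of edgeR, Benjamini-Hochberg adjusted p = 0.142). Without NoASP shSCR replicate 2 it was -1.27 and passed (edgeR, adjusted p = 0.0440). Over the 6 fits that left out 1 library it ranged from -1.27 to -0.70. With aspartate in both groups it was -0.55 against ASP shSCR (SE 0.28, edgeR, adjusted p = 0.516). Against ASP shDHPS it was -0.48 (SE 0.28, edgeR, adjusted p = 0.448). Without the *Grin2d* hairpin, ASP shSCR minus NoASP shSCR gave -0.47 (SE 0.26) and ASP shDHPS minus NoASP shSCR gave -0.54 (SE 0.26). Neither passed. These comparisons share libraries, and the value of -1.02 is not the size of the knockdown alone. *Grin1*, which encodes GluN1, had 0 counts in all 6 libraries, which allows up to 0.155 to 0.200 CPM. *Grin3b* measured 0.0196 CPM in ASP shGRIN2D, and the remaining 4 of the 7 subunit genes were not in the table.

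The 7-base sequence TCATGAA recurred in the 3′ UTRs of genes that were lower in the shGRIN2D libraries. It had been picked out earlier from a comparison that used the same 3 shGRIN2D libraries, so its recurrence here is not independent evidence for it. *Grin2d* itself holds it in its coding sequence, starting at base 1644 of transcript ENSMUST00000002848.9. The hairpin sequence was not used here, and whether its target overlaps this site was not tested. The lines below show the first TCATGAA in the longest annotated 3′ UTR of 8 lower genes, 2 higher genes and the coding copy in *Grin2d*, each with 18 bases before and 5 after it. The 10 genes with a 3′ UTR line are called genes under the naming rule. They are all those with a match that averaged at least 5 CPM over the 6 libraries. Capitals mark TCATGAA, and coordinates are GRCm38 (GENCODE M21), while the counts were made on GRCm39.
Grin2d (coding, across a splice junction within chr7:45858548-45861956, minus strand): agagtctgcacaggtattTCATGAAcatca
Agps (chr2:75927746-75927775, plus strand): tctttataaaatgcatctTCATGAAggtga
Pi4k2b (chr5:52769222-52769251, plus strand): gctgtactttgtaagcatTCATGAActtaa
Ccng1 (chr11:40749404-40749433, minus strand): tacataaaaaccaacattTCATGAAtgcac
Pgap1 (chr1:54480104-54480133, minus strand): ttcaaaacaatggcatttTCATGAActttc
Cyb561a3 (chr19:10589773-10589802, plus strand): atgagtgggtattttactTCATGAAtctta
Ccne1 (chr7:38098041-38098070, minus strand): caacagcatgtcctgcctTCATGAActctt
Pcmtd1 (chr1:7170380-7170409, plus strand): ctttaaaaaccacagactTCATGAAatttt
Esrp1 (chr4:11359223-11359252, minus strand): cggaattctttgcatatgTCATGAAgtgtt
Gas7 (chr11:67685249-67685278, plus strand): ctcccttccattgttcatTCATGAAgagtt
Chdh (chr14:30037494-30037523, plus strand): cgcctaccactctggctcTCATGAAaccgt

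A further T precedes the capitals in all lines except those of *Esrp1* and *Chdh*. *Pgap1* holds TCATGAA at 5 places and *Agps* at 3, while the other 8 genes with a 3′ UTR site hold 1. Among 1738 mature mouse microRNAs of RefSeq, 0 have UUCAUGA, the bases that pair with TCATGAA, at positions 2 to 8. Seeds that pair with TTCATGA, which includes the further T, were not searched.

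Of 19525 genes, 133 were called (0.681%, edgeR, Benjamini-Hochberg adjusted p under 0.05), 48 higher in ASP shGRIN2D (0.246%) and 85 lower (0.435%). At least 1.5-fold separated the groups for 40 of the higher and 59 of the lower genes. All 133 had CPM ranges that did not overlap. This follows largely from their choice by a small p, and the share over all genes is not given here. An unadjusted edgeR p under 0.05 was found for 1812 genes. Leaving out ASP shGRIN2D replicate 1, 2 or 3 gave 56, 65 or 71 calls. Leaving out NoASP shSCR replicate 2, 3 or 4 gave 104, 121 or 62.

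**Figure D1:**
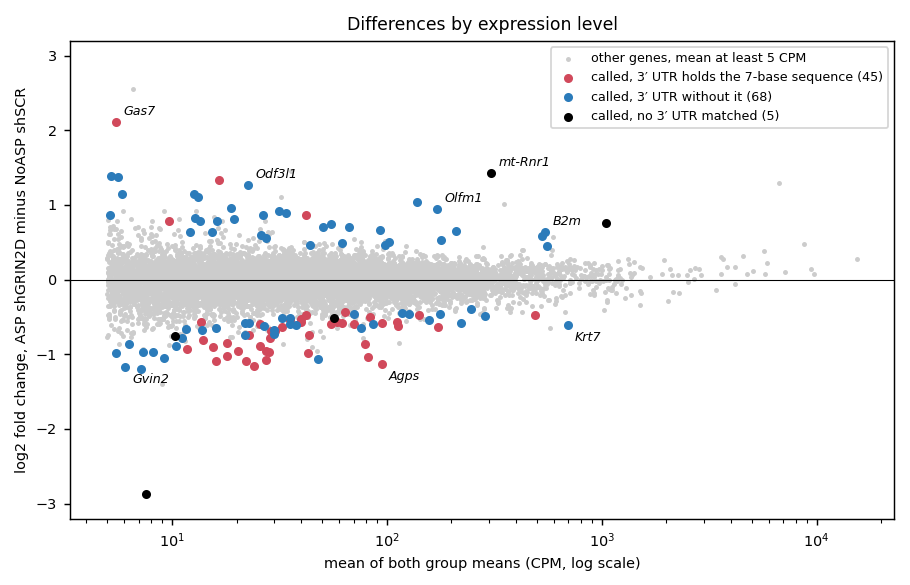
Log2 fold change of ASP shGRIN2D minus NoASP shSCR (vertical axis) against the mean of both group means (horizontal axis, CPM on a log scale) for genes averaging at least 5 CPM. Coloured points are called genes, 45 with TCATGAA in the longest 3′ UTR (red), 68 without it (blue) and 5 with no matched 3′ UTR (black), and most red points lie below 0. 1 gene beyond 3.2 is not drawn.

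Of 10234 genes averaging at least 5 CPM over the 6 libraries, 9875 (96.5%) were matched to a 3′ UTR. TCATGAA stood in 41 of the 75 lower genes (54.7%) and in 4 of the 38 higher genes (10.5%), against 13.5% of all 9875. Every one of the 8 genes printed above as lower is among the 41. The 3′ UTRs of lower genes were longer, with a median of 1945 bases against 1434 over all genes, and longer sequences hold more 7-base words. Within 3′ UTRs of 1000 to 3000 bases, 26 of 41 lower genes (63.4%) and 1 of 14 higher genes held it, against 13.7% of 4334. The 8-base TTCATGAA stood in 28 of the 75 lower genes (37.3%), against 4.88% of all. In coding sequences TCATGAA stood in 16 of the 75 lower genes (21.3%), against 13.8% of all. A match describes a sequence and is not evidence of a bound site.

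Fold changes were also compared by the number of copies. The median log2 fold change was 0.02 over 8538 genes without the sequence, -0.06 over 1138 genes with 1 copy, -0.06 over 162 genes with 2 and -0.11 over 37 genes with 3 or more. Genes with TTCATGAA had a median of -0.09 (n = 482). The median 3′ UTR length rose with the copies, from 1266 to 2560, 3726 and 5228 bases. ASP shDHPS minus NoASP shSCR, which shares the NoASP libraries, gave -0.000884, -0.04, -0.05 and -0.13 for the same 4 classes and -0.05 for TTCATGAA. The 1292 genes that held TCATGAA and were not called had a median of -0.05 with the *Grin2d* hairpin and -0.04 with the *Dhps* hairpin. The part of length in these unrestricted series was not tested. Within 3′ UTRs of 1000 to 3000 bases the medians were -0.07 with the sequence and 0.01 without it. In the same length range, ASP shDHPS minus NoASP shSCR gave -0.02 for both. ASP shSCR minus NoASP shSCR gave -0.00381 with the sequence and -0.00136 without it.

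**Figure D2:**
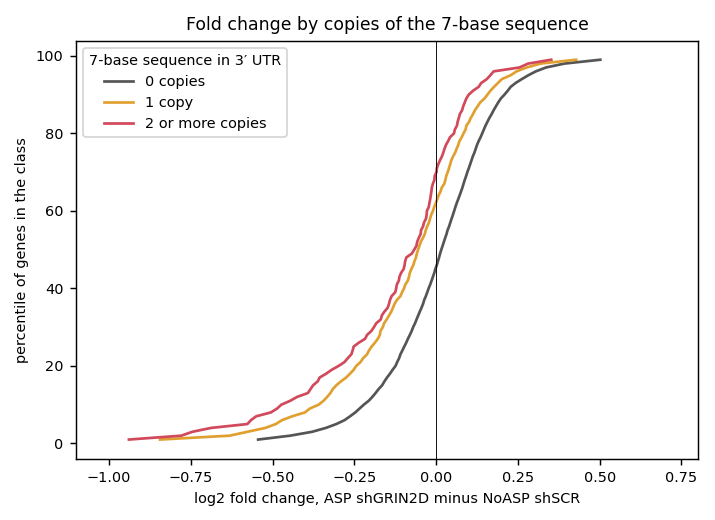
Percentile of genes (vertical axis, percentiles 1 to 99) at or below each log2 fold change of ASP shGRIN2D minus NoASP shSCR (horizontal axis), for genes whose longest 3′ UTR holds TCATGAA 0 times (grey), once (yellow) or 2 or more times (red). The curves with copies lie to the left of the curve without, and all 3 span both directions.

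Each library was also taken on its own, as the median deviation of genes with TCATGAA from their mean over all 14 libraries, less that of genes without it. In 3′ UTRs of 1000 to 3000 bases this was -0.06, -0.04 and -0.07 (log2) in ASP shGRIN2D replicates 1 to 3. It was 0.02 in each of NoASP shSCR replicates 2 to 4, so the groups did not overlap. The sequence had been picked from a comparison with these 3 shGRIN2D libraries, and called genes were kept in these medians. The separation is therefore not independent evidence for the sequence. In the same length range ASP shDHPS replicate 1 lay at 0.07, about as far from 0 on the other side. The other ASP shDHPS and ASP shSCR libraries lay between 0.00625 and 0.03. Over all lengths ASP shGRIN2D lay between -0.06 and -0.04, but NoASP shSCR replicate 3 lay at -0.01 and ASP shDHPS replicate 3 at -0.07.

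The lower genes with the sequence belonged to several pathways. *Agps*, which encodes a peroxisomal enzyme of ether lipid synthesis, had the smallest p of all genes. It measured 60.2, 60.4 and 57.9 CPM in ASP shGRIN2D against 128, 123 and 139 CPM in NoASP shSCR. The log2 fold change was -1.13 (SE 0.09, edgeR, Benjamini-Hochberg adjusted p = 5.23e-07), and *Agps* and *Gas7* were called in all 15 alternative fits. *Pi4k2b*, a phosphatidylinositol 4-kinase, measured 53.2, 52.4 and 55.3 CPM against 118, 101 and 110 CPM, a log2 fold change of -1.03 (SE 0.10, edgeR, adjusted p = 6.50e-06). The spread within each group was a small part of the gap for both genes.

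*Ccng1*, which encodes cyclin G1, a p53-responsive cyclin, measured 26.9, 27.9 and 31.4 CPM against 60.5, 54.0 and 56.1 CPM. Its log2 fold change was -0.99 (SE 0.11, edgeR, adjusted p = 5.65e-05). *Ccne1*, which encodes cyclin E1, the partner of CDK2 at entry into S phase, measured 9.12, 12.7 and 9.07 CPM against 15.8, 22.6 and 27.4 CPM. Its log2 fold change was -1.09 (SE 0.20, edgeR, adjusted p = 0.00781), and the call was lost without ASP shGRIN2D replicate 1 or 3 or NoASP shSCR replicate 4. Both cyclin genes were lower in every shGRIN2D library, which the naming rule required.

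*Pgap1* encodes an enzyme that removes an acyl chain from GPI anchors. It measured 16.6, 15.1 and 13.1 CPM against 49.3, 22.3 and 28.7 CPM, with NoASP shSCR replicate 2 well above the other 2. The log2 fold change was -1.16 (SE 0.24, edgeR, adjusted p = 0.0209), and -0.77 at the smallest when 1 library was left out. The call held in 1 of those 6 fits, the one without NoASP shSCR replicate 3. *Cyb561a3*, a lysosomal cytochrome b561, fell with a log2 fold change of -1.09 (SE 0.16, edgeR, adjusted p = 0.000561). *Pcmtd1*, a protein of the isoaspartate methyltransferase family, fell with a log2 fold change of -1.07 (SE 0.15, edgeR, adjusted p = 0.000561). Both were called in all 6 fits that left out 1 library.

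Genes outside the naming rule, chosen after their values were seen, add to this group. *Ankrd1*, a target of the Hippo pathway effectors YAP and TAZ, measured 11.4, 12.2 and 11.998 CPM against 25.3, 23.5 and 23.8 CPM, a log2 fold change of -1.03 (SE 0.12, edgeR, adjusted p = 6.80e-05). *Nbl1*, a secreted BMP antagonist, had a log2 fold change of -0.90 (SE 0.12), and *Nmnat2*, an NAD-synthesizing enzyme, -0.96 (SE 0.17), lost as a call without ASP shGRIN2D replicate 1. *Sgpl1*, which breaks down sphingosine 1-phosphate, had -0.62 (SE 0.10). *Has2*, a hyaluronan synthase, had -0.74 (SE 0.15) and was called in 1 of the 6 fits without a library. The remaining lower genes with the sequence that averaged at least 5 CPM over the 6 libraries had log2 fold changes between -0.96 and -0.44. They included *Mapk8*, *Marcks*, *Clcn3* and *Tia1*. Leaving out every gene with TCATGAA in its longest 3′ UTR left 84 calls, 43 higher and 41 lower.

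**Figure D3:**
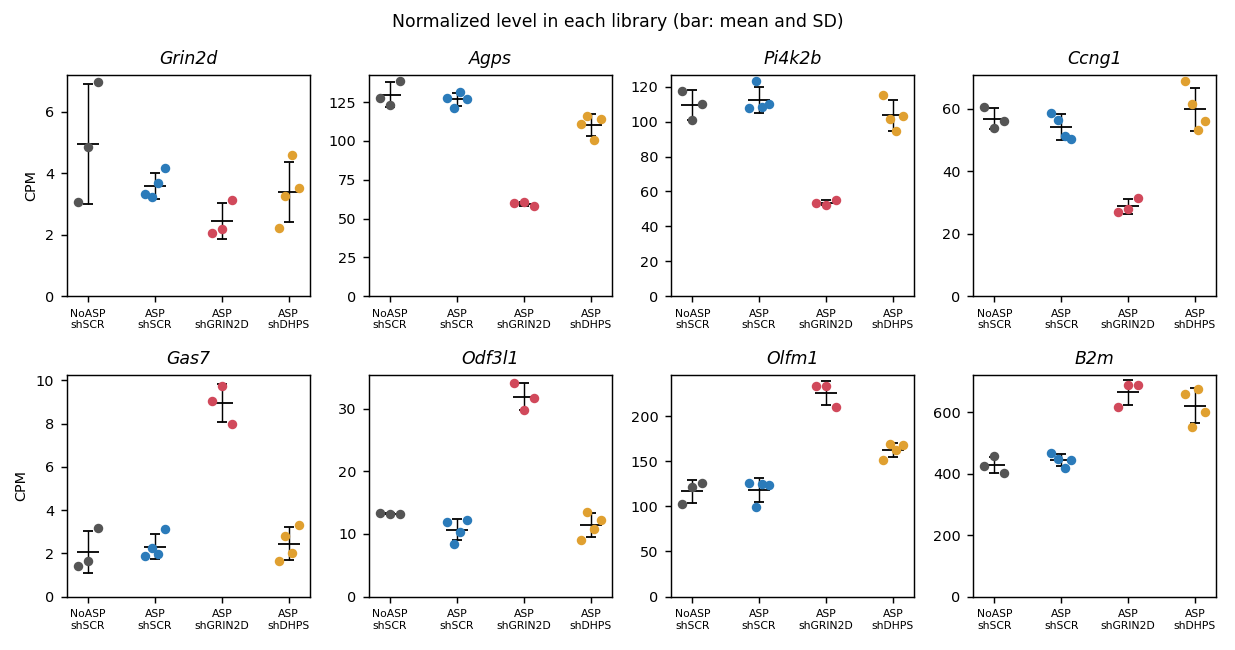
CPM (vertical axis) of 8 genes in each library of the 4 groups, with the mean and SD as bars. *Agps*, *Pi4k2b* and *Ccng1* lie lowest in ASP shGRIN2D, *Gas7*, *Odf3l1* and *Olfm1* highest, *B2m* is high with both targeting hairpins, and *Grin2d* overlaps between ASP shGRIN2D and NoASP shSCR.

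*Gvin2*, *Npr3*, *Mmp9* and *Gsta3*, called genes without TCATGAA in the longest 3′ UTR, also fell. Whether *Prss12*, *Lilrb4b*, *Sema6a* or *Plxna4* holds it is not given, because their means lay below the CPM limit of the 3′ UTR counts. *Gvin2*, a large interferon-inducible GTPase, measured 3.50, 3.93 and 3.80 CPM against 9.10, 8.18 and 7.95 CPM, a log2 fold change of -1.17 (SE 0.17, edgeR, Benjamini-Hochberg adjusted p = 0.000575). It belongs to a family of near-identical copies, which makes its counts uncertain. *Npr3*, the natriuretic peptide clearance receptor, measured 7.00, 6.63 and 4.33 CPM against 13.2, 10.8 and 13.4 CPM, a log2 fold change of -1.05 (SE 0.18, edgeR, adjusted p = 0.00458). *Mmp9*, a gelatinase that digests basement membrane collagen, measured 25.5, 32.5 and 35.2 CPM against 84.8, 49.3 and 61.0 CPM. Its log2 fold change was -1.07 (SE 0.22, edgeR, adjusted p = 0.0162), with the call lost without ASP shGRIN2D replicate 1 or 2 or NoASP shSCR replicate 2 or 4. *Gsta3*, a glutathione transferase, had -1.20 (SE 0.27, edgeR, adjusted p = 0.0381) and belongs to a family of close copies. Its call was lost in 4 of the 6 fits without a library. *Prss12*, the serine protease neurotrypsin, had -1.23 (SE 0.28, edgeR, adjusted p = 0.0420) from means of 2.46 and 5.75 CPM and kept its call in 1 of those 6 fits.

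*Lilrb4b*, an inhibitory receptor of the leukocyte Ig-like family, had the largest fall under the naming rule. It measured 1.29, 1.70 and 2.27 CPM against 5.35, 5.80 and 5.56 CPM, a log2 fold change of -1.68 (SE 0.34, edgeR, adjusted p = 0.0139). It has a near-identical neighbour, so reads can be split between both. The call was lost without ASP shGRIN2D replicate 1 or 2 or NoASP shSCR replicate 4. *Sema6a* and *Plxna4*, a semaphorin and a plexin receptor that act in cell guidance, were the 2 members called of 55 tested in the guidance list (3.64%), both lower. *Sema6a* measured 1.93 ± 0.415 CPM against 4.79 ± 0.648 CPM (SD, n = 3 each), and *Plxna4* 2.64 ± 0.460 against 5.38 ± 0.874 CPM. Their log2 fold changes were -1.31 (SE 0.24) and -1.02 (SE 0.22). *Sema6a* lost its call without ASP shGRIN2D replicate 2, and *Plxna4* kept it only without NoASP shSCR replicate 2.

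Among the genes that rose, *Gas7*, an actin-binding protein first described in growth-arrested cells, had the largest fold of those named for size, which averaged at least 5 CPM in the higher group. It measured 9.06, 9.75 and 7.999 CPM against 1.39, 1.64 and 3.17 CPM. The log2 fold change was 2.11 (SE 0.29, edgeR, Benjamini-Hochberg adjusted p = 0.000519), and 1.90 to 2.56 when 1 library was left out. *Gas7* rose although its 3′ UTR holds 1 TTCATGAA. *Odf3l1*, related to a protein of sperm tail fibres, measured 34.1, 29.9 and 31.7 CPM against 13.3, 13.2 and 13.2 CPM, a log2 fold change of 1.27 (SE 0.15, edgeR, adjusted p = 6.80e-05). *Olfm1*, a secreted olfactomedin glycoprotein, measured 233, 233 and 210 CPM against 102, 122 and 126 CPM, a log2 fold change of 0.95 (SE 0.11, edgeR, adjusted p = 4.99e-05). All 3 genes lay above the control range in every shGRIN2D library, which the naming rule required. They were called in every fit that left out 1 library.

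*Chdh*, the mitochondrial choline dehydrogenase, measured 28.8, 18.7 and 23.4 CPM against 8.35, 11.2 and 8.51 CPM, a log2 fold change of 1.34 (SE 0.19, edgeR, adjusted p = 0.000561). *Sod3*, the extracellular superoxide dismutase, measured 21.1, 17.7 and 15.1 CPM against 8.03, 8.44 and 8.67 CPM, a log2 fold change of 1.10 (SE 0.15, edgeR, adjusted p = 0.000382). *Map1a*, a microtubule-associated protein, measured 8.11 against 3.12 CPM on average, a log2 fold change of 1.38 (SE 0.24, edgeR, adjusted p = 0.00387). *Cd300lb*, an activating receptor known from myeloid cells, measured 8.03, 6.69 and 7.80 CPM against 2.89, 3.32 and 2.34 CPM, a log2 fold change of 1.39 (SE 0.24, edgeR, adjusted p = 0.00379). Of the immune markers, *Cd68* measured 8.96 and 10.1 CPM and *Ptprc* 0.0957 and 0.270 CPM in the shGRIN2D and control groups.

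*Mgp*, matrix Gla protein, an inhibitor of calcification, measured 203, 181 and 174 CPM against 115, 78.8 and 77.1 CPM. Its log2 fold change was 1.04 (SE 0.16, edgeR, Benjamini-Hochberg adjusted p = 0.00158). *Dmp1* and *Phex*, chosen after their values were seen, encode a phosphoprotein of bone matrix and a peptidase of bone cells that takes part in phosphate balance. *Dmp1* measured 55.2, 50.7 and 56.4 CPM against 40.4, 24.4 and 24.4 CPM, a log2 fold change of 0.86 (SE 0.16, edgeR, adjusted p = 0.00935), and the call was lost in 4 of the 6 fits that left out 1 library. *Phex* had a log2 fold change of 0.96 (SE 0.17, edgeR, adjusted p = 0.00687), lost without ASP shGRIN2D replicate 1 or NoASP shSCR replicate 4.

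Other matrix and surface genes rose as well. *Igfbp7*, a secreted protein that binds insulin-like growth factors, measured 7.98, 8.92 and 7.27 CPM against 4.60, 3.75 and 2.56 CPM, a log2 fold change of 1.15 (SE 0.22, edgeR, adjusted p = 0.00828), lost as a call without ASP shGRIN2D replicate 2 or NoASP shSCR replicate 4. *Cspg4*, the proteoglycan NG2, measured 5.05 against 2.43 CPM on average, with a log2 fold change of 1.06 (SE 0.24, edgeR, adjusted p = 0.0405) that was called in 1 of the 6 fits without a library. *Sulf2*, an extracellular heparan sulfatase chosen after its values were seen, measured 42.2, 38.5 and 43.1 CPM against 22.5, 19.7 and 23.6 CPM, a log2 fold change of 0.91 (SE 0.12, edgeR, adjusted p = 0.000430). *Itgb3*, the integrin β3 subunit, measured 40.5, 33.5 and 28.9 CPM against 21.4, 16.2 and 19.1 CPM, a log2 fold change of 0.86 (SE 0.16, edgeR, adjusted p = 0.00828). It was the 1 called gene of 31 tested integrins and laminins (3.23%, with 3 by DESeq2), and the call was lost without ASP shGRIN2D replicate 1 or NoASP shSCR replicate 3 or 4. *H2bc4*, a replication-type histone H2B gene, had a log2 fold change of 1.14 (SE 0.16, edgeR, adjusted p = 0.000521), and histone genes have close copies.

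The mitochondrial ribosomal RNAs were higher. *mt-Rnr1* measured 508, 523 and 303 CPM against 102, 255 and 141 CPM, a log2 fold change of 1.42 (SE 0.26, edgeR, adjusted p = 0.00705). It lost its call without ASP shGRIN2D replicate 1 or 2 or NoASP shSCR replicate 4. *mt-Rnr2* measured 1550, 1290 and 1115 CPM against 611, 850 and 869 CPM, a log2 fold change of 0.76 (SE 0.14, edgeR, adjusted p = 0.00772), and its call was lost without ASP shGRIN2D replicate 1 or NoASP shSCR replicate 2. Mitochondrial genes as a whole held 5.81% to 6.23% of the counts in ASP shGRIN2D and 4.71% to 6.15% in NoASP shSCR, ranges that overlap. Libraries were enriched for polyadenylated RNA, and how completely ribosomal RNA was removed from each was not tested.

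Among interferon response genes, *H2-D1* and *H2-K1*, which encode class I heavy chains that display peptides to T cells, and *B2m*, which encodes their shared light chain, rose. *B2m* measured 616, 688 and 690 CPM against 425, 458 and 403 CPM, a log2 fold change of 0.63 (SE 0.10, edgeR, Benjamini-Hochberg adjusted p = 0.00117). *H2-D1* measured 633, 625 and 644 CPM against 444, 440 and 389 CPM, and *H2-K1* 212, 201 and 220 CPM against 149, 145 and 145 CPM. Their log2 fold changes were 0.58 (SE 0.10, edgeR, adjusted p = 0.00294) and 0.53 (SE 0.09, edgeR, adjusted p = 0.00485). All 3 were called in every fit that left out 1 library, and their ranges, like those of every called gene, did not overlap. *Tap1*, a subunit of the transporter that supplies these peptides, had 0.15 (SE 0.21) and did not pass (edgeR, adjusted p = 0.875). *Nlrc5*, an activator of class I transcription, and *H2-Q10*, a class I heavy chain gene, both chosen after their values were seen, had log2 fold changes of 0.78 (SE 0.17, edgeR, adjusted p = 0.0242) and 0.87 (SE 0.20, edgeR, adjusted p = 0.0411). *Nlrc5* lost its call in all 6 fits without a library and *H2-Q10* in 5. The H2 genes are a family of similar copies, so the division of reads among them is uncertain.

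Of 46 tested interferon response genes, 3 were called higher (*B2m*, *H2-D1* and *H2-K1*) and 1 lower (8.70% in all), with a median log2 fold change of 0.11 over the 38 members averaging at least 1 CPM in either group, against 0.01 over all 12206 such genes. The lower gene was *Ifit2*, an interferon-induced inhibitor of translation, at 9.06, 9.98 and 7.87 CPM against 15.6, 11.6 and 15.3 CPM. Its log2 fold change was -0.66 (SE 0.15, edgeR, adjusted p = 0.0381), called in 1 of the 6 fits without a library. *Psmb8* and *Psmb9*, subunits of the immunoproteasome, had 0.62 (SE 0.19) and 0.70 (SE 0.28) and did not pass. In the Hallmark interferon gamma set 8 of 187 tested genes were higher and 1 was lower (4.81%), with a median of 0.01. In the interferon alpha set 5 of 102 were higher and 1 was lower (5.88%), with a median of 0.00189. Chosen after their values were seen were *Ly6e*, a surface protein induced by interferon, at 0.67 (SE 0.10), and *Casp1*, the inflammasome protease, at 0.63 (SE 0.15). *Casp1* lost its call in all 6 fits without a library. *Ifngr1*, a chain of the interferon gamma receptor that holds TTCATGAA, was lower, at 21.3, 22.4 and 22.9 CPM against 37.0, 37.4 and 33.0 CPM, a log2 fold change of -0.69 (SE 0.11, edgeR, adjusted p = 0.00162). *Tlr3*, a receptor for double-stranded RNA with 1 TCATGAA, had -0.63 (SE 0.14, edgeR, adjusted p = 0.0358), called in 1 of those fits.

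Of 33 tested genes of the epithelial-mesenchymal list 3 were called, all lower (9.09%): *Mmp9*, *Krt7* and *Esrp1*. At an unadjusted edgeR p under 0.05 there were 14, against 1812 of all 19525 genes. DESeq2 called 7, against 327 of 12705 genes. *Krt7*, a simple-epithelium keratin, measured 554, 526 and 576 CPM against 827, 878 and 815 CPM, a log2 fold change of -0.61 (SE 0.09, edgeR, Benjamini-Hochberg adjusted p = 0.00144). *Esrp1*, an epithelial splicing factor whose 3′ UTR holds TCATGAA, measured 56.4, 53.4 and 58.4 CPM against 89.9, 71.9 and 93.0 CPM, a log2 fold change of -0.60 (SE 0.10, edgeR, adjusted p = 0.00387). The 10 epithelial markers of the label check summed to 3495 to 3761 CPM in ASP shGRIN2D and 4530 to 4679 CPM in NoASP shSCR, without overlap. Of the 10, edgeR called *Esrp1*, 8 had an unadjusted p under 0.05 and DESeq2 called 5. *Krt18* had a log2 fold change of -0.41 (SE 0.11, edgeR, adjusted p = 0.0862), *Krt8* -0.33 (SE 0.09) and *Cdh1*, E-cadherin, -0.17 (SE 0.10). Of mesenchymal genes, *Vim* had 0.20 (SE 0.10) and *Zeb2* 0.59 (SE 0.18, edgeR, adjusted p = 0.172), neither past the threshold. *Fn1* had 0.06 (SE 0.26), *Snai1* -0.03 (SE 0.11) and *Sparc* -0.29 (SE 0.11), also not past it. Of the 29 members of the epithelial-mesenchymal list averaging at least 1 CPM in either group, 7 were above 0, with a median of -0.18. *Hmga2*, a chromatin protein chosen after its values were seen, measured 673, 614 and 636 CPM against 441, 473 and 488 CPM, a log2 fold change of 0.46 (SE 0.09, edgeR, adjusted p = 0.0110), and its call was lost in 3 of those 6 fits. Fewer cells of a type and less RNA per cell cannot be told apart in these bulk libraries.

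**Figure D4:**
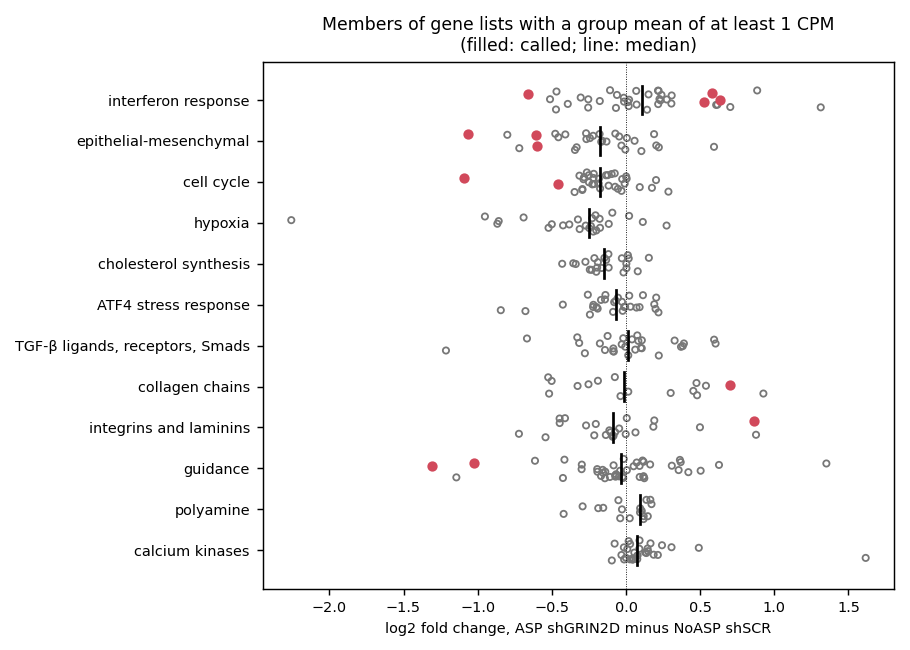
Log2 fold change of ASP shGRIN2D minus NoASP shSCR (horizontal axis) of the members of 12 gene lists (vertical axis), for members averaging at least 1 CPM in either group. Filled points are called genes and lines are list medians. Called members lie on both sides in the interferon list and below 0 in the epithelial-mesenchymal, cell cycle and guidance lists.

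In the cell cycle list 2 of 34 tested genes were called, both lower (5.88%): *Ccne1*, given above, and *Mcm3*, a subunit of the replicative helicase. *Mcm3* measured 156, 142 and 150 CPM against 182, 219 and 215 CPM, a log2 fold change of -0.46 (SE 0.10, edgeR, adjusted p = 0.0206), called in 1 of the 6 fits without a library. Of the 34 genes, 6 were above 0, with a median log2 fold change of -0.18. *Mki67*, a proliferation marker, had -0.35 (SE 0.15) and *Top2a*, topoisomerase II, -0.28 (SE 0.10), and neither passed. In the Hallmark E2F target set 3 of 199 genes were called, all lower (1.51%), and the median was -0.12. At an unadjusted p under 0.05, 16 of the 34 cell cycle genes passed, and DESeq2 called 5.

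Among genes through which the study connects the receptor to the matrix, few were called. The study's links also include phosphorylated CREB and SMAD3, hypusine on eIF5A and translation, which these RNA counts do not measure. It reported, by quantitative PCR, that *Grin2d* silencing removed the rise of *Dohh* with aspartate. Here both the hairpin and the aspartate differ, so this comparison does not test that rise. In control-hairpin spheroids, ASP shSCR minus NoASP shSCR gave -0.04 (SE 0.11) for *Dohh*. Of 32 calcium-dependent kinase, phosphatase and CREB coactivator genes 0 were called (edgeR, 2 at an unadjusted p under 0.05, 0 by DESeq2), and the median log2 fold change was 0.07 over the 31 with at least 1 CPM. *Creb1*, which encodes CREB, measured 84.8 ± 2.61 against 85.6 ± 7.95 CPM (SD, n = 3 each). *Dhps* and *Dohh*, the 2 enzymes that make hypusine on eIF5A, had log2 fold changes of 0.00 (SE 0.16) and -0.01 (SE 0.12), with 95% intervals of -0.34 to 0.34 and -0.25 to 0.23. *Eif5a* had 0.06 (SE 0.12). All 3 differences were smaller than their standard errors. Of 24 immediate-early genes 0 were called, of 20 polyamine genes 0, of 31 ATF4 response genes 0, of 12 aspartate and glutamate transporter genes 0 and of 17 aspartate-using enzyme genes 0. By DESeq2 the count was also 0 in each of these 5 lists, and at an unadjusted edgeR p under 0.05 it was 5, 2, 2, 0 and 4.

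Of 31 TGF-β ligands, receptors and Smads 0 were called by edgeR (6 at an unadjusted p under 0.05) and 2 by DESeq2. Of 23 TGF-β response genes 0 were called (5 at an unadjusted p under 0.05, 0 by DESeq2). *Tgfb3*, a TGF-β ligand, measured 105, 83.3 and 104 CPM against 75.5, 79.0 and 68.2 CPM. The groups did not overlap, but the log2 fold change of 0.39 (SE 0.10) did not pass (edgeR, adjusted p = 0.0965). It passed in 2 of 15 alternatives, DESeq2 (adjusted p = 0.0101) and the edgeR fit without ASP shGRIN2D replicate 2 (adjusted p = 0.0458). *Tgfb1* had 0.10 (SE 0.16), *Tgfb2* 0.59 (SE 0.37) from means of 1.46 and 2.22 CPM in NoASP shSCR and ASP shGRIN2D, and *Smad3*, a transcription factor of the pathway, 0.02 (SE 0.14). *Inhba*, the activin A subunit, had -0.67 (SE 0.17, edgeR, adjusted p = 0.0852). Of 29 tested collagen chain genes 1 was called, *Col6a1* (3.45%), a chain of the microfibrillar collagen VI. It measured 77.2, 86.1 and 83.9 CPM against 53.6, 49.0 and 49.0 CPM, a log2 fold change of 0.70 (SE 0.15, edgeR, adjusted p = 0.0281). The call was lost in all 6 fits that left out a library, while the log2 fold change stayed between 0.67 and 0.75. *Col6a2*, a further chain of collagen VI, had 0.93 (SE 0.33, edgeR, adjusted p = 0.301) and *Col1a1*, a fibrillar collagen chain with at most 1.39 CPM in the 6 libraries, 0.48 (SE 0.63). Of 24 collagen-modifying enzymes 0 were called by edgeR (5 at an unadjusted p under 0.05) and 1 by DESeq2.

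Among 35 neutrophil cytokine genes *Ccl2*, a chemokine for monocytes, was called (2.86%). It measured 2.21, 3.52 and 2.40 CPM against 0.696, 0.791 and 0.278 CPM, a log2 fold change of 2.18 (SE 0.48, edgeR, adjusted p = 0.0294), and was called in 1 of the 6 fits without a library. The median of the list was -0.15 over 28 genes. In the hypoxia list 0 of 25 were called (edgeR, 3 at an unadjusted p under 0.05, 0 by DESeq2) and 3 were above 0, with a median of -0.25. The hypoxia list summed to 4357 to 4748 CPM in ASP shGRIN2D and 4766 to 6512 CPM in NoASP shSCR. For 1 member, *Bnip3*, a mitophagy receptor induced by low oxygen, the spread lay in the control group. *Bnip3* measured 32.4 ± 2.64 CPM in ASP shGRIN2D and 62.6 ± 55.8 CPM in NoASP shSCR (SD, n = 3 each). In the cholesterol synthesis list 0 of 23 were called (3 at an unadjusted p under 0.05, 1 by DESeq2), with a median of -0.15. Of 13 RNA interference genes 0 were called (1 at an unadjusted p under 0.05, 0 by DESeq2).

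The other groups place these differences beside the aspartate supplement and the second targeting hairpin. These comparisons share libraries, so their values are only set side by side. ASP shSCR minus NoASP shSCR called 0 genes of 19525 (0%, edgeR), with 424 at an unadjusted p under 0.05 and 0 by DESeq2. ASP shGRIN2D minus ASP shSCR called 226 (1.16%), 83 higher (0.425%) and 143 lower (0.732%). *Agps* had log2 fold changes of -1.13 against NoASP shSCR, -1.09 against ASP shSCR and -0.03 for aspartate in control spheroids. For *Pi4k2b* they were -1.03, -1.07 and 0.04, for *Gas7* 2.11, 1.98 and 0.13, and for *Olfm1* 0.95, 0.93 and 0.02. *Igfbp7* differed more by control, with 1.15, 0.64 and 0.50, and so did *Ccl2*, with 2.18, 1.00 and 1.19. Against ASP shSCR, *Igfbp7*, *Gsta3*, *Plxna4*, *Ccl2* and *Casp1* did not pass (edgeR, adjusted p = 0.140, 0.129, 0.0741, 0.352 and 0.298), and the difference between both comparisons, the aspartate effect in control spheroids, passed for none of them (edgeR, adjusted p = 1 for each).

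**Figure D5:**
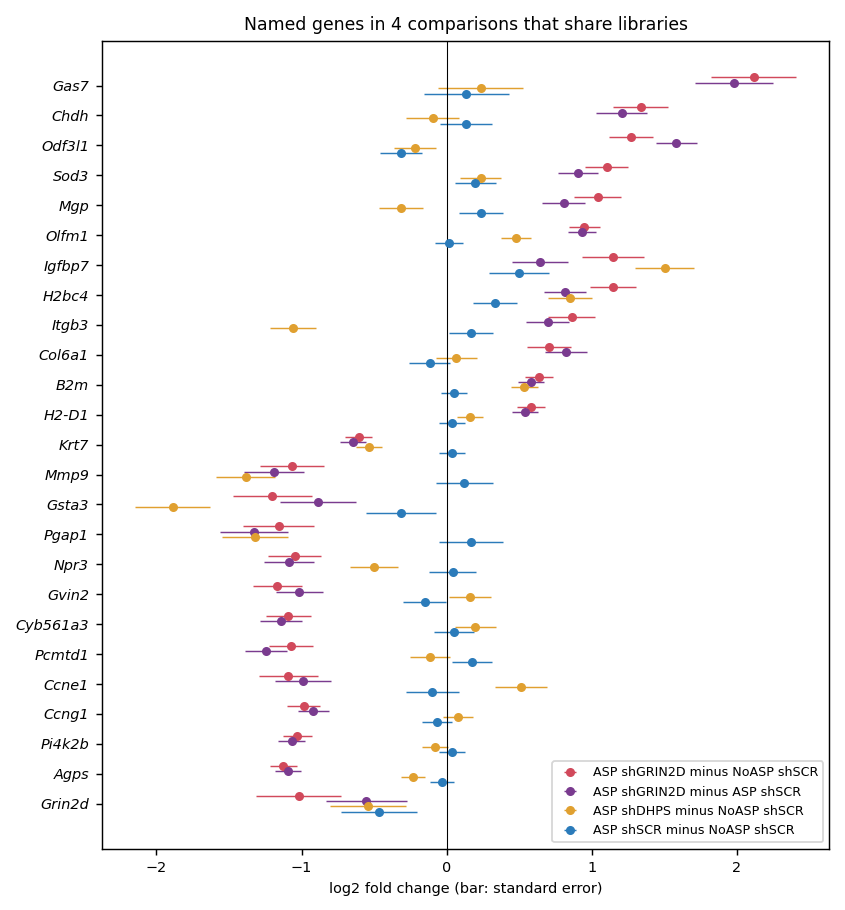
Log2 fold change with its standard error (horizontal axis) of 25 named genes (vertical axis) in 4 comparisons that share libraries. The 2 comparisons of ASP shGRIN2D lie close together for most genes, those of aspartate alone lie nearer 0 than both for each gene, and those of ASP shDHPS lie apart for genes such as *Itgb3*, *Ccne1* and *Agps*.

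ASP shGRIN2D was also tested directly against ASP shDHPS, which carried the same aspartate and a different targeting hairpin. This comparison called 550 genes (2.82%), 316 higher (1.62%) and 234 lower (1.2%), and ASP shDHPS minus NoASP shSCR called 354 (1.81%), 122 higher (0.625%) and 232 lower (1.19%). *Agps*, *Pi4k2b*, *Ccng1*, *Ccne1*, *Cyb561a3* and *Pcmtd1* were lower in ASP shGRIN2D, with log2 fold changes of -0.89, -0.95, -1.06, -1.60, -1.29 and -0.96 (edgeR, Benjamini-Hochberg adjusted p between 2.38e-06 and 0.000411). *Gas7*, *Odf3l1*, *Mgp* and *Itgb3* were higher, with 1.88, 1.49, 1.36 and 1.92 (edgeR, adjusted p between 4.89e-07 and 0.000184). *H2-D1* and *H2-K1* were higher by 0.42 and 0.39 (edgeR, adjusted p = 0.00998 and 0.0121). Other genes did not separate the hairpins: *B2m* differed by 0.10, *Krt7* by -0.07, *Esrp1* by -0.09 and *Pgap1* by 0.16 (edgeR, adjusted p between 0.643 and 0.794), and against NoASP shSCR the ASP shDHPS libraries gave 0.54, -0.53, -0.51 and -1.32. *Mmp9* stood at -1.07 with the *Grin2d* hairpin and -1.38 with the *Dhps* hairpin, and *Gsta3* at -1.20 and -1.89. *Igfbp7*, *H2bc4*, *Ccl2* and *Nmnat2* also did not pass between the hairpins (edgeR, adjusted p = 0.388, 0.341, 0.691 and 0.566). For these genes ASP shDHPS minus NoASP shSCR gave 1.50, 0.85, 1.81 and -0.76 (edgeR, adjusted p = 0.000485, 0.00491, 0.0457 and 0.0108).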

How the data were processed

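Poly(A)-enriched RNA of the cytosolic lysate was sequenced with a stranded kit. Per the submitters' notes the authors trimmed reads with Trim Galore 0.6.6, mapped them to GRCm39 with STAR 2.6.1, quantified genes with Salmon 1.4.0 and deposited rounded counts, filtered for expression in at least 2 replicates of a condition. Counts of gene copies and overlapping genes are therefore estimates. The authors' own comparison tables were not used.

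Counts of all 14 libraries were fitted with edgeR 4.0.16 (R 4.3.3; TMM factors 0.984 to 1.02; group as the only term; quasi-likelihood test), with Benjamini-Hochberg adjustment over 19525 genes and calls at 0.05. CPM values carry the TMM factors, and fold changes are on the log2 scale with their standard error. Beside 11 fixed genes, the rule named the 12 largest rises and falls among called genes (mean of at least 5 CPM in the higher group, ranges not overlapping, no predicted models), the 3 smallest p in each direction and every called member of 25 lists. The rule gave 48 genes, and 1 of them is not reported here. Beyond it, 17 genes were chosen after their values were seen. Members, lists and the 7-base sequence were chosen with earlier results of these data known. Called shares of a list stand beside 0.681% of all genes. List counts at an unadjusted edgeR p under 0.05 stand beside 1812 of 19525 genes, and those by DESeq2 beside 327 of 12705.

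3′ UTRs came from GENCODE M21 (GRCm38), the longest per gene, searched on the transcript strand. The model was tested on simulated data. Replicate numbers 2 and 3 occur in both groups, but the deviations of same-numbered libraries correlated at only 0.0706 and 0.185, so they were not treated as pairs. Alternatives were DESeq2 1.42.0, RLE factors, library size alone, filterByExpr, a robust prior, only the 6 libraries, a replicate block, the fit without each library in turn and a test against 1.5-fold. Added after seeing the data were the fit without replicate 2 of both shSCR groups, other word lengths, a 3′ UTR length range, and calls without TCATGAA genes.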

Additional observations from a re-analysis of the deposited data

Results flagged for a closer look

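Outlying libraries were sought in the groups of 4, ASP shSCR and ASP shDHPS, which stand beside the comparison and did not enter its fold changes. A library was taken as outlying where its gap to the nearest other, as a part of the group's range, was above the 95% critical value of Dixon's test, which chance gives for about 1 in 20 groups. ASP shSCR replicate 2 lay apart for *Pcmtd1* (0.830 of the range), *Mmp9* (0.897), *Olfm1* (0.895) and *Eif5a* (0.925). In ASP shDHPS, replicate 1 lay apart for *Col6a1* (0.836) and *Tgfb1* (0.985), replicate 3 for *Col1a1* (0.910), *Tgfb3* (0.944) and *Casp1* (0.889), and replicate 4 for *Dmp1* (0.840). The groups of 3 were not tested in this way.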

How the results depend on the processing

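The 133 calls (48 higher, 85 lower; 14 list members) became 327 (116, 211; 29) with DESeq2, 246 (86, 160; 29) with only the 6 libraries, 338 (123, 215; 38) with the replicate block, 3 (2, 1; 0) against 1.5-fold and 84 (41 lower) without TCATGAA genes. They were 74 higher without replicate 2 of both shSCR groups. Leaving out each library gave 56 to 121 calls, 23 to 42 higher, 32 to 86 lower and 6 to 13 list members. DESeq2 shared 131 of the 133 calls, and the block and the 6-library fit 132 each. Other settings left these counts within 1.5 times. *Grin2d* passed without replicate 2 of both shSCR groups (-1.28) and otherwise ranged from -1.27 to -0.70 over fits without 1 library. The share of lower genes with the sequence was 46.3% with DESeq2, 45.7% with only the 6 libraries, 37.3% for TTCATGAA, 69.3% for TCATGA (33.2% of all genes) and 51.4% to 73.3% without 1 library. Of 38 called genes under the rule, 21 kept their call in all 6 fits without a library and 0 changed sign. Sign changes occurred in small differences: *Dhps* (0.00229 with DESeq2, 0.00232 with RLE, 0.00239 with filterByExpr, 0.0723 with the replicate block, -0.10 to 0.11 without 1 library), *Smad3* (-0.021 by library size, -0.11 to 0.15 without 1 library), *Eif5a* and *Creb1* (-0.048 and 0.038 without replicate 2 of both shSCR groups, -0.045 to 0.16 and -0.086 to 0.042 without 1 library) and *Dohh* (-0.076 to 0.030 without 1 library). The cause of these changes was not tested. The 37 to 125 counts of *Grin2d* limit its precision.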
